A study of Rattus norvegicus with 12 samples.

Results

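The genes of renal calcium reabsorption, vitamin D metabolism and klotho were examined in kidneys of 2 rat models of renal fibrosis (RF). The set held 10 genes, Trpv5, Trpv6, Calb1, S100g, Slc8a1, Casr, Vdr, Cyp24a1, Cyp27b1 and Kl, each chosen by its symbol. All 10 were found as a single entry among the 22132 entries of the table holding control and adenine rats and among the 32623 entries of the table holding sham and UUO rats. Kidney RNA was sequenced from 12 male wild-type SD rats, bought at 8 weeks of age, with 3 rats in each of 4 groups. Adenine rats had received a daily gavage of adenine (220 mg/kg) over 3 weeks, and control rats received normal saline over the same time. Rats of the UUO group had undergone unilateral ureteral obstruction, the tying of a single ureter, and were compared with sham-operated rats 2 weeks after surgery. Expression was given as FPKM, fragments scaled by transcript length and library size, so levels of different genes within a group can be set side by side per length. The tables were normalized separately, and changes were therefore taken within each table.

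In the distal convoluted and connecting tubule, calcium enters the cell from the urine through the apical channels Trpv5 and Trpv6, is carried by the calbindins (Calb1 and, in smaller amounts, S100g) and leaves on the blood side through the sodium-calcium exchanger Slc8a1. The active form of vitamin D is made by Cyp27b1, broken down by Cyp24a1 and sensed by the receptor Vdr, and it is known to raise transcription of the channels and the calbindins. Klotho (Kl) is the co-receptor through which FGF23 acts on the tubule, and Casr, the calcium-sensing receptor, lies mainly on the blood side of the thick ascending limb.

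Upstream sequences of Trpv5 and Trpv6 are shown because both genes, neighbours on chromosome 4, were higher in the adenine group. Each run gives the 250 bases before the start of the gene in RefSeq (build GRCr8), read 5′ to 3′ on the gene's own strand, which is the minus strand for both. Capitals mark a hexamer of the vitamin D response element, searched as AGGTCA or GGTTCA or GGGTCA or AGTTCA on both strands. The run shown for Trpv5 lies at chr4:71529383-71529632 and that for Trpv6 at chr4:71489668-71489917.
Trpv5: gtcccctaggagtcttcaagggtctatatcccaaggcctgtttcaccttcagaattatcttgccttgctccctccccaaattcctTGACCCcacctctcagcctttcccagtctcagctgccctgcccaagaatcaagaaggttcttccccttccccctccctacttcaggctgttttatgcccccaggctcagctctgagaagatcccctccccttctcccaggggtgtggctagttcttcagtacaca
Trpv6: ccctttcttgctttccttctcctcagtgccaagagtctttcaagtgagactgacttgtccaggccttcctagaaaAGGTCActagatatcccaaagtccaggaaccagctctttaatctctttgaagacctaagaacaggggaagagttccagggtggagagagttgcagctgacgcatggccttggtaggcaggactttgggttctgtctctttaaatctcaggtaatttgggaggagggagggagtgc
The match of Trpv5 was GGGTCA on the opposite strand, starting 165 bases before the gene start (position -165), and that of Trpv6 was AGGTCA on the gene's strand at position -175. Upstream sequences were found for 7 of the 10 genes, and 5 of these 7 held such a hexamer, against 39.1% of all 33469 upstream sequences of this length. No upstream sequence of these genes held hexamers in a direct repeat spaced by 3 bases, a form that 0.0926% of all upstream sequences held. These matches describe letters in the reference and were not tested as binding sites.

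Some rats stood apart from others of their group, and this touched most of the genes. Control rat 2 had the lowest value of its group for 9 of the 10 genes, the exception being S100g. Its FPKM of Slc12a3, the sodium-chloride cotransporter that defines the distal convoluted tubule, was 12.9 against 197 and 164 in the other control rats. Adenine rat 2 had the highest value of its group for 8 of the 10 genes and a Slc12a3 FPKM of 88.9, against 11.5 and 14.8 in the other adenine rats. Sham rat 1 was lowest in its group for 7 of the 10 genes, with a Slc12a3 FPKM of 68.8 against 139 and 165. UUO rat 1 was lowest in its group for 8 of the 10 genes and adenine rat 1 for 6 of the 10, and the Slc12a3 FPKM of UUO rat 1 was 16.6 against 12.2 and 9.58. The groups of both tables were labelled as kidney. Umod, the defining transcript of the thick limb, was 1521, 1207 and 1588 FPKM in the control rats and 215, 131 and 82.7 FPKM in the adenine rats. It was 2095, 2490 and 1888 FPKM in the sham rats and 89.9, 61.3 and 163 FPKM in the UUO rats. Control rat 2 was lowest in its group for Umod as well, but by far less than for Slc12a3. The part that the tissue sampled in these rats played in the results below was not tested. Some fits below leave out both rats numbered 2 of the control and adenine groups. Those rats were chosen after their values of these genes were seen. Leaving out a low control rat and a high adenine rat enlarges a fall by construction, so calls of those fits are only a description.

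Among the genes tested with limma, 3 rose, 2 fell and 4 were not called in the adenine group, while 1 rose, 5 fell and 4 were not called in the UUO group. A gene was said to have risen or fallen when its Benjamini-Hochberg adjusted p was under 0.05, and it was counted as a differentially expressed gene (DEG) when its absolute log2 fold change was also at least 2. Genes were tested if they reached an FPKM of 0.5 in at least 3 of the 6 samples of a table, which left 9 of the 10 in the adenine comparison (Cyp27b1 did not pass) and 10 of the 10 in the UUO comparison. Trpv6 passed only through its adenine and UUO samples, so that its inclusion already required a difference. Of the other genes tested, 2 of 8 rose with adenine and 0 of 9 rose with UUO. Of all 15029 entries tested in the adenine comparison, 39.6% rose and 19.9% fell, and 10.7% and 5.03% were DEGs in those directions. Of all 15043 entries tested in the UUO comparison, 56.1% rose and 14.4% fell, with 13.2% and 4.21% as DEGs. The adenine group did not overlap its controls for 4 of the 9 tested genes, where 68.0% of all entries did not overlap. The UUO group did not overlap the sham group for 7 of 10 genes, where 75.7% of all entries did not. The median log2 fold change was -0.19 over the 9 tested genes and 0.30 over all entries in the adenine comparison, and -0.98 over the 10 genes and 0.62 over all entries in the UUO comparison. With median-of-ratios scaling those medians over all entries were 0.0694 and 0.0836.

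**Figure D1:**
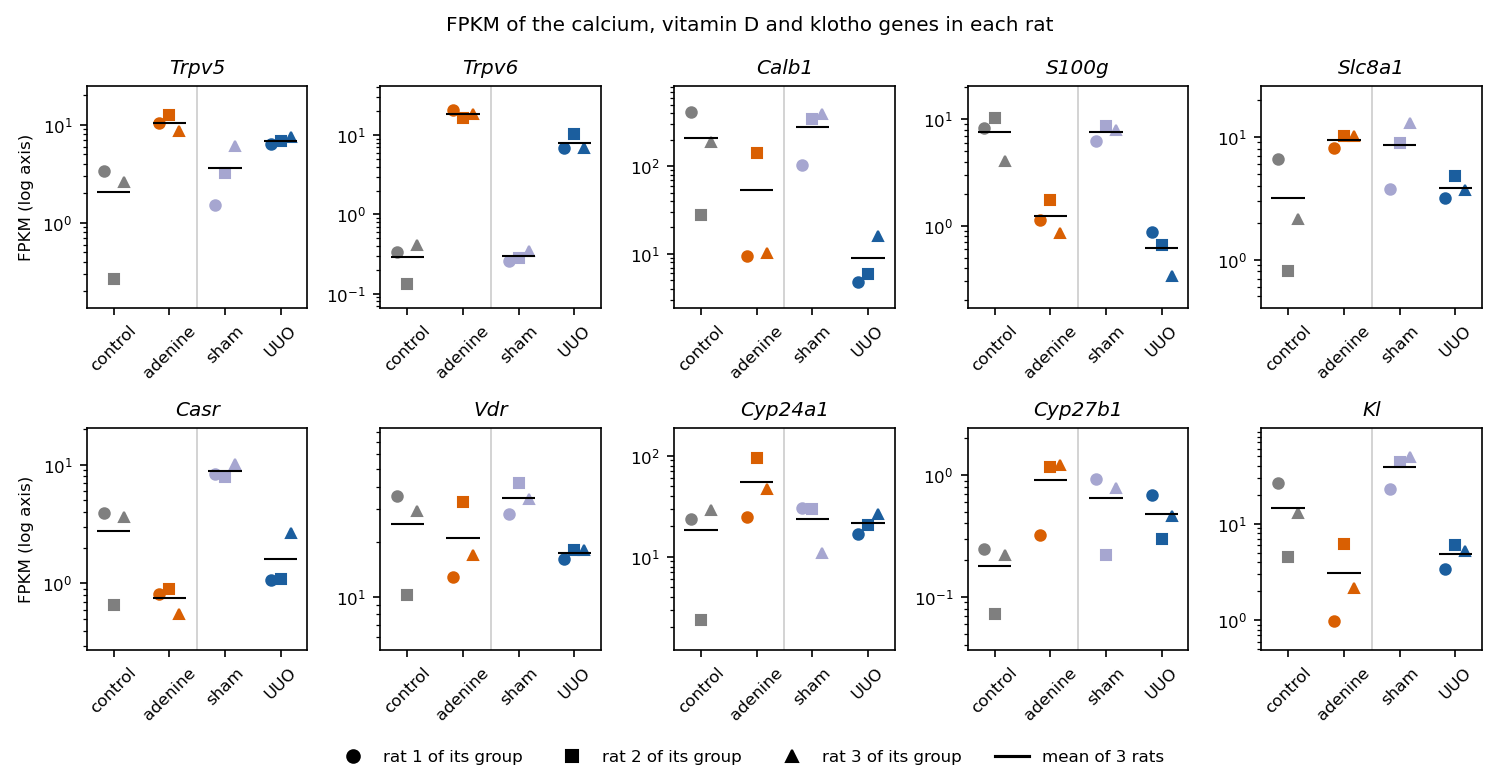
FPKM of each gene (log axis, a scale of its own in each panel) in the 3 control, 3 adenine, 3 sham and 3 UUO rats, with black lines for the group means and marker shapes for the rat's number within its group. Trpv6 lay between 16.3 and 20.9 in the adenine rats and at or below 0.407 in the control rats, S100g was lower in both models, and control rat 2 (square) was lowest in its group for all genes shown except S100g.

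Trpv6, the apical entry channel better known from the intestine, had the steepest rise of the set. In the control rats its FPKM was 0.330, 0.131 and 0.407, and in the adenine rats it was 20.9, 16.3 and 18.7. In the sham rats it was 0.257, 0.284 and 0.347, and in the UUO rats it was 6.83, 10.3 and 6.91. Every treated rat was thus above every rat of its comparison group in both models. The ratio of group means was 64.4 for adenine (18.6 ± 2.29 against 0.289 ± 0.143, SD, n = 3 each) and 27.1 for UUO (8.02 ± 1.99 against 0.296 ± 0.0464, SD, n = 3 each). On the log2(FPKM + 0.1) scale the rise was 5.66 ± 0.32 (SE, limma adjusted p = 4.32e-05) with adenine and 4.34 ± 0.24 (SE, limma adjusted p = 2.17e-05) with UUO. The size depended on the pseudocount, since the comparison groups lay near 0.3 FPKM, and over all alternatives it ranged from 3.927 to 6.095 with adenine and from 2.777 to 4.696 with UUO, each of them called. Trpv6 was tested only because its treated rats reached the minimum FPKM. A rise was thus a condition of testing wherever that minimum was used, and those adjusted p values and calls are no independent support. The number of reads behind such low FPKM is unknown.

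Trpv5, the channel on which most distal calcium entry is known to depend, rose with adenine. Its FPKM was 3.36, 0.269 and 2.61 in the control rats and 10.4, 12.5 and 8.57 in the adenine rats. It was 1.52, 3.25 and 6.14 in the sham rats and 6.32, 6.84 and 7.45 in the UUO rats. The groups did not overlap in either model, although the highest sham rat and the lowest UUO rat were close. With adenine the log2 fold change was 2.79 ± 0.81 (SE, limma adjusted p = 0.0223), and without both rats numbered 2 it was 1.64 (limma adjusted p = 0.00426). Leaving out adenine rats 1, 2 or 3 in turn gave limma adjusted p values of 0.0534, 0.0622 and 0.0538. With UUO the log2 fold change of 1.10 ± 0.45 (SE) was not called (limma adjusted p = 0.0632), and it moved both ways with the samples and the scaling. Without sham rat 1 it was 0.606 (limma adjusted p = 0.102), with median-of-ratios scaling 0.57 (limma adjusted p = 0.311) and with quantile normalization 0.35 (limma adjusted p = 0.514). Without sham rat 3 it was 1.58 and called (limma adjusted p = 0.00708), as it was with rescaling to the same sum (1.32, limma adjusted p = 0.0296). How the authors' counting treated reads that the related sequences of Trpv5 and Trpv6 could share is not given in the sources used here.

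The balance between the channels was also compared within each rat. The log2 ratio of Trpv6 to Trpv5 was -3.01, -0.68 and -2.42 in the control rats and 1.00, 0.38 and 1.12 in the adenine rats. In the sham rats it was -2.19, -3.13 and -3.80, and in the UUO rats 0.11, 0.58 and -0.11. Trpv5 was the more abundant channel per length in all 6 comparison rats, while Trpv6 was the more abundant in 3 of 3 adenine rats and 2 of 3 UUO rats. The mean ratio was higher by 2.87 with adenine and by 3.23 with UUO, with no overlap between groups in either. In both cases the two-sided exact permutation test gave p = 0.1, the smallest that 3 rats against 3 allow (0.286 after Benjamini-Hochberg adjustment over the 10 ratio comparisons made).

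Calb1, the abundant calcium-binding protein of the distal convoluted and connecting tubule, was the highest of the 10 genes in both the control and the sham groups. Its FPKM was 407, 27.5 and 190 in the control rats and 9.49, 140 and 10.4 in the adenine rats. In the sham rats it was 104, 340 and 389, and in the UUO rats 4.82, 5.90 and 16.2. UUO rats lay far below all sham rats, while the adenine and control groups crossed because control rat 2 was below adenine rat 2. The fall with UUO was 4.93 on the log2 scale, given by limma as -4.93 ± 0.63 (SE, limma adjusted p = 0.000484). The log2 fold change with adenine, -2.41 ± 1.33 (SE), was not called (limma adjusted p = 0.158). Without both rats numbered 2 it was -4.79 (limma adjusted p = 0.00116), and without adenine rat 2 alone it was -3.68 (limma adjusted p = 0.0319).

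Slc12a3 moved with Calb1 from rat to rat in the control, adenine and sham groups. In the UUO rats the order was opposite, with Slc12a3 at 16.6, 12.2 and 9.58 FPKM and Calb1 at 4.82, 5.90 and 16.2 FPKM. The log2 ratio of Calb1 to Slc12a3 was 1.05, 1.09 and 0.21 in the control rats, with control rat 2 close to control rat 1 on this measure, and -0.27, 0.66 and -0.51 in the adenine rats. It was 0.593, 1.295 and 1.242 in the sham rats and -1.76, -1.03 and 0.75 in the UUO rats. The groups overlapped in both models. The ratio was lower by 0.82 with adenine (-0.0423 ± 0.62 against 0.78 ± 0.49, SD, n = 3 each) and by 1.72 with UUO (-0.68 ± 1.29 against 1.04 ± 0.39, SD, n = 3 each), and in each the two-sided exact permutation test gave p = 0.2. In bulk kidney RNA, fewer cells of a tubule segment and less RNA per cell cannot be told apart.

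**Figure D2:**
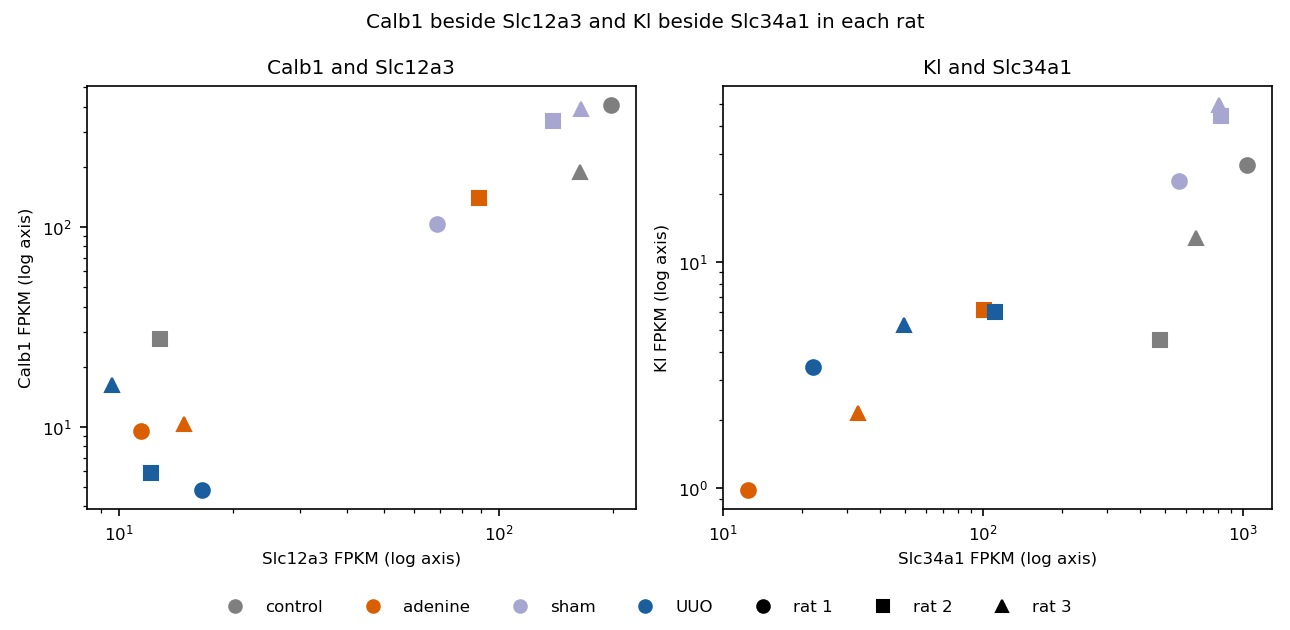
FPKM of Calb1 against Slc12a3 (left) and of Kl against Slc34a1, the main phosphate transporter of the proximal tubule (right), in each of the 12 rats, on log axes, coloured by group and with marker shapes for the rat's number within its group. Control rat 2 (Calb1 27.5, Slc12a3 12.9) lay below adenine rat 2 (Calb1 140, Slc12a3 88.9) on both axes of the left panel. Slc34a1 in control rat 2 (478) stayed above every adenine rat. The tables were normalized separately, so rats are to be compared within a table.

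S100g, calbindin-D9k, the small calcium-binding protein best known from the intestine, fell in both models. Its FPKM was 8.27, 10.3 and 4.09 in the control rats and 1.14, 1.73 and 0.864 in the adenine rats. In the sham rats it was 6.25, 8.57 and 7.99, and in the UUO rats 0.876, 0.661 and 0.337. No treated rat reached the lowest rat of its comparison group, and control rat 2 was here the highest of its group rather than the lowest. The log2 fold change was -2.46 ± 0.40 (SE, limma adjusted p = 0.00201) with adenine and -3.47 ± 0.32 (SE, limma adjusted p = 0.00013) with UUO. S100g was called under all 16 alternatives of the adenine comparison and all 15 of the UUO comparison. The log2 ratio of S100g to Calb1 overlapped between groups in both models, from -5.61 to -1.41 in the control rats, -6.26 to -2.95 in the adenine rats, -5.59 to -4.03 in the sham rats and -5.22 to -2.33 in the UUO rats.

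Slc8a1, the exchanger that returns calcium to the blood, was the only gene of the set whose fitted changes had opposite signs in the models with a called difference. Its FPKM was 6.61, 0.802 and 2.15 in the control rats and 8.07, 10.2 and 10.1 in the adenine rats. It was 3.78, 8.98 and 13.0 in the sham rats and 3.15, 4.77 and 3.65 in the UUO rats. The adenine rats were all above the control rats, whereas the lowest sham rat fell within the UUO range. With adenine Slc8a1 rose by 1.99 ± 0.66 (log2, SE, limma adjusted p = 0.037), and without both rats numbered 2 the value was 1.23 (limma adjusted p = 0.117). The call, but not the direction, was lost in several alternatives. Without control rat 2 the value was 1.29 (limma adjusted p = 0.0571), without control rat 3 it was 1.95, and without adenine rats 1, 2 or 3 it was 2.10, 1.93 and 1.94, with limma adjusted p up to 0.0979. With median-of-ratios scaling it was 1.76 (limma adjusted p = 0.0542) and with quantile normalization 1.57 (limma adjusted p = 0.0646), and with no filter the limma adjusted p was 0.0566. With UUO the value was -0.99 ± 0.44 (log2, SE, limma adjusted p = 0.0801), and it was called without sham rat 1 (-1.48, limma adjusted p = 0.00318) and with median-of-ratios scaling (-1.52, limma adjusted p = 0.0217).

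Casr, the receptor that senses blood calcium in the thick limb, fell in the UUO group. Its FPKM was 3.92, 0.662 and 3.64 in the control rats and 0.807, 0.897 and 0.548 in the adenine rats. It was 8.40, 7.91 and 10.2 in the sham rats and 1.07, 1.09 and 2.63 in the UUO rats. All UUO rats were below all sham rats, and control rat 2 alone lay within the adenine range. The UUO change was -2.51 ± 0.35 (log2, SE, limma adjusted p = 0.000707). The adenine value of -1.43 ± 0.65 (log2, SE) was not called (limma adjusted p = 0.0979) but was -2.21 and called without control rat 2 (limma adjusted p = 0.00152).

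Vdr, the nuclear receptor of active vitamin D, fell in the UUO group, where its mean was 0.498 of the sham mean. Its FPKM was 35.4, 10.2 and 29.3 in the control rats and 12.9, 33.0 and 16.9 in the adenine rats. It was 28.3, 41.9 and 34.2 in the sham rats and 16.0, 18.0 and 18.0 in the UUO rats. The UUO rats were close together and all below the sham rats, while the adenine and control rats were interspersed. The UUO change was -0.98 ± 0.15 (log2, SE, limma adjusted p = 0.00114), which is under the fold change of a DEG. The adenine value was -0.19 ± 0.54 (log2, SE, limma adjusted p = 0.784). With each sample left out in turn it ranged from -0.737 to 0.158 and was called in 0 of 6 fits. Without both rats numbered 2, chosen after their values were seen, it was -1.12 (limma adjusted p = 0.00837). That was the only 1 of 16 alternatives with a call.

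Cyp24a1, the enzyme that inactivates vitamin D and is itself a classical target of Vdr, was not called in either model. Its FPKM was 23.4, 2.37 and 28.9 in the control rats and 25.0, 94.1 and 46.7 in the adenine rats. It was 30.4, 29.4 and 11.0 in the sham rats and 16.8, 20.7 and 26.8 in the UUO rats. Adenine rats 2 and 3 exceeded all control rats, but adenine rat 1 did not, and the sham and UUO rats overlapped. The adenine value was 2.01 ± 0.98 (log2, SE, limma adjusted p = 0.118) and 0.39 without both rats numbered 2 (limma adjusted p = 0.354). The UUO value was -0.03 ± 0.40 (log2, SE, limma adjusted p = 0.958).

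Cyp27b1, the enzyme that makes active vitamin D in the proximal tubule, was low throughout. Its FPKM was 0.246, 0.0730 and 0.219 in the control rats and 0.324, 1.17 and 1.21 in the adenine rats. It was 0.924, 0.221 and 0.782 in the sham rats and 0.690, 0.299 and 0.456 in the UUO rats. The adenine rats were all above the control rats, and the UUO rats lay within the sham range. In the adenine comparison it did not pass the minimum FPKM and was not fitted, and the two-sided exact permutation test on log2(FPKM + 0.1) gave p = 0.1, the smallest possible. With UUO the value was -0.24 ± 0.53 (log2, SE, limma adjusted p = 0.693). The log2 ratio of Cyp24a1 to Cyp27b1 was 5.48 ± 1.44 in the control and 5.75 ± 0.54 in the adenine rats, and 5.02 ± 1.44 in the sham and 5.24 ± 0.71 in the UUO rats (SD, n = 3 each). These ratios overlapped in both models.

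Kl, the FGF23 co-receptor of the distal and proximal tubule, fell in both models, with a call in the adenine group that held in 7 of 16 alternatives. Its FPKM was 26.7, 4.52 and 12.8 in the control rats and 0.982, 6.15 and 2.15 in the adenine rats. It was 22.8, 44.2 and 49.3 in the sham rats and 3.43, 6.01 and 5.26 in the UUO rats. The UUO rats were all far below the sham rats, while adenine rat 2 lay above control rat 2. The fall with UUO was given as -2.92 ± 0.33 (log2, SE, limma adjusted p = 0.000306). With adenine the value was -2.24 ± 0.81 (log2, SE), just past the threshold (limma adjusted p = 0.0498). That call was lost without control rat 1 or adenine rat 1 (-1.64 in each) and without control rat 3 or adenine rat 3 (-2.17 in each), with limma adjusted p from 0.115 to 0.139. It was also lost with a pseudocount of 0.01 (limma adjusted p = 0.0523), eBayes without trend (limma adjusted p = 0.0632), rescaling to the same sum (limma adjusted p = 0.0695) and no filter (limma adjusted p = 0.0742), all of which kept the direction. Without both rats numbered 2 the value was -3.58 (limma adjusted p = 0.0051).

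Kl was also set against Slc34a1, which was 1034, 478 and 659 FPKM in the control rats and 12.4, 100.5 and 32.9 FPKM in the adenine rats. The log2 ratio of Kl to Slc34a1 was -5.27, -6.69 and -5.67 in the control rats and -3.53, -4.01 and -3.87 in the adenine rats, higher by 2.08 with no overlap (two-sided exact permutation p = 0.1, the smallest possible). In the sham rats it was -4.63, -4.22 and -4.03 and in the UUO rats -2.65, -4.18 and -3.21, higher by 0.94 with overlapping groups (two-sided exact permutation p = 0.2).

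**Figure D3:**
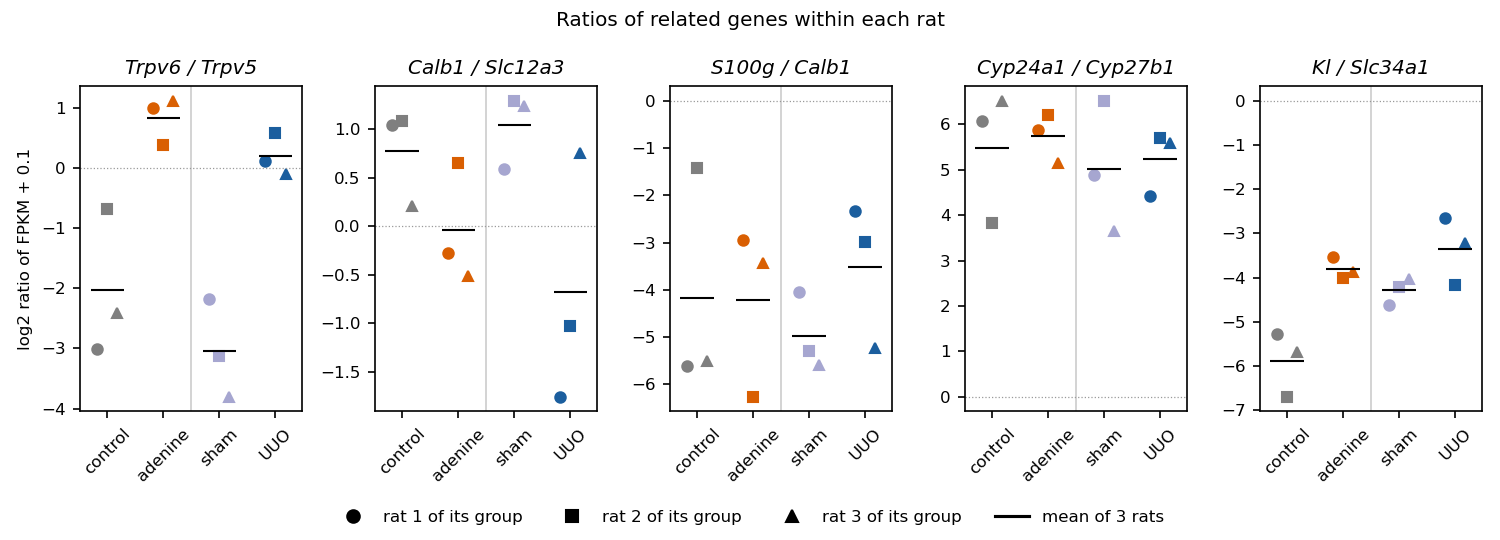
Log2 ratio of FPKM + 0.1 for 5 pairs of genes in the 3 rats of each group, with black lines for the group means, marker shapes for the rat's number within its group and a dotted line at 0 where the genes are equal. The mean ratio of Trpv6 to Trpv5 was -2.03 in the control and 0.83 in the adenine rats, and -3.04 in the sham and 0.20 in the UUO rats, without overlap, and the ratio of Cyp24a1 to Cyp27b1 overlapped in both models.

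The order of levels within a group shifted with treatment. In the control group Calb1 (208 ± 191 FPKM, SD, n = 3) was followed by Vdr, Cyp24a1 and Kl, and in the sham group Calb1 (278 ± 152 FPKM) was followed by Kl, Vdr and Cyp24a1, and in both groups these next genes had overlapping ranges. In the adenine group Cyp24a1 (55.3 ± 35.3 FPKM) and Calb1 (53.3 ± 75.2 FPKM) came first and could not be separated from each other or from Vdr (20.9 ± 10.7 FPKM). In the UUO group Cyp24a1 (21.4 ± 5.02 FPKM) and Vdr (17.3 ± 1.13 FPKM) came first with overlapping ranges. Calb1 (4.82 to 16.2 FPKM) came next, overlapping Vdr as well as Trpv6 and Trpv5, which followed it. Trpv6 ranked 9 of 10 in the control group and 10 of 10 in the sham group, and 4 of 10 in both the adenine and the UUO groups. Levels were compared only within a group, since the tables were normalized separately.

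**Figure D4:**
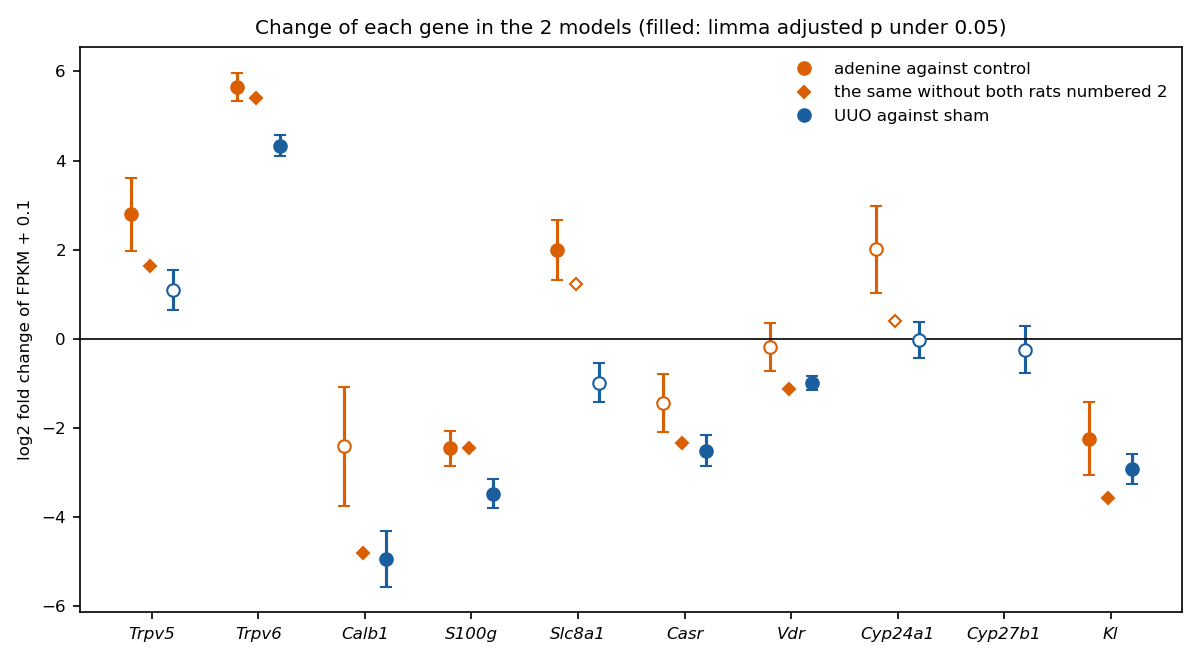
Log2 fold change of FPKM + 0.1 with its SE (bars) for each gene, adenine against control (orange circles) and UUO against sham (blue circles), with orange diamonds for the adenine comparison without both rats numbered 2 (no bars), and filled symbols for a limma adjusted p under 0.05. Without those rats the diamonds of Calb1 (-4.79), Casr (-2.34) and Vdr (-1.12) were filled where the circles were not, and that of Slc8a1 (1.23) was open. Those rats were chosen after their values of these genes were seen, so the filled diamonds are a description and no support for a fall. Cyp27b1 has no adenine value because it did not pass the minimum FPKM.

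Whether a change differed between the models was tested for the 9 genes fitted in both tables, and 2 were called, where 27.0% of all 13486 symbols tested in both were called. The change of Slc8a1 was 2.98 ± 0.79 higher (log2, SE) with adenine than with UUO (limma-based adjusted p = 0.0152), and it was called under all 22 alternatives. The change of Trpv6 was 1.32 ± 0.40 higher (log2, SE) with adenine (limma-based adjusted p = 0.0259), a rise in both models, and its call was lost without adenine rat 1, adenine rat 3, UUO rat 1 or UUO rat 3, with adjusted p from 0.0542 to 0.0724. Calb1 had the next largest difference, 2.52 ± 1.47 (log2, SE), which was not called (limma-based adjusted p = 0.217) and was 0.14 without both rats numbered 2. For Trpv5 the difference of 1.69 ± 0.93 (log2, SE) was not called either (limma-based adjusted p = 0.19). The remaining differences, of S100g, Casr, Vdr, Cyp24a1 and Kl, lay between 0.68 and 2.04 with adjusted p from 0.153 to 0.596.

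Among 34 other genes of calcium and magnesium transport, 8 rose and 8 fell of 26 tested with adenine, and 7 rose and 10 fell of 26 tested with UUO. These are 30.8% and 30.8% of those tested with adenine, where 39.6% and 19.9% of all entries rose and fell, and 26.9% and 38.5% with UUO, where 56.1% and 14.4% did. With median-of-ratios scaling the splits were 8 risen and 9 fallen, and 5 and 13. That scaling also lowered the median change over all entries, and the shares of all entries under it are not given here. The shares above are therefore no measure for these splits. The median log2 fold change of this list was -0.20 with adenine and -0.11 with UUO, beside 0.30 and 0.62 over all entries. Of the rises, Ramp1, which partners the calcitonin receptor family, had the largest, 5.36 ± 0.31 with adenine and 4.80 ± 0.26 with UUO (log2, SE). Anxa2 and S100a10, whose proteins form a complex known to carry Trpv5 and Trpv6 to the membrane, rose in both models, Anxa2 by 3.08 ± 0.25 and 3.23 ± 0.084 and S100a10 by 2.02 ± 0.20 and 2.91 ± 0.15 (log2, SE). The largest falls were those of Egf, the magnesium-regulating growth factor of the distal tubule, at -6.04 ± 0.80 and -7.78 ± 0.36, and of Umod, at -3.43 ± 0.34 and -4.47 ± 0.34 (log2, SE). In the adenine comparison Klk1, tissue kallikrein, was lower by -5.70 ± 1.12 (log2, SE), a value that is uncertain because it belongs to a family of closely similar genes. With UUO the third largest fall was that of Cldn10, a tight-junction protein, at -2.97 ± 0.18 (log2, SE).

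Of 29 genes of vitamin D uptake, metabolism and receptor partners, 9 rose and 7 fell of 25 tested with adenine, and 16 rose and 5 fell of 26 tested with UUO. Cyp3a9 and Snai2 passed the minimum FPKM in the UUO comparison only through UUO rats, so their inclusion already required a difference. Of the other 24 tested with UUO, 14 rose. The shares that rose, 36.0% and 61.5%, were near those of all entries (39.6% and 56.1%), and the shares that fell were 28.0% and 19.2% (19.9% and 14.4% of all entries). With median-of-ratios scaling the splits were 8 risen and 9 fallen with adenine and 6 and 8 with UUO, so the split depended on the scaling in both models. The shares of all entries under that scaling are not given here, so the shift cannot be read as particular to this list. Of the genes that carry or take up filtered vitamin D, Gc, Lrp2 and Amn fell in both models, while the receptor Cubn (cubilin) was not called in either (-0.34 ± 0.41 with adenine and -0.48 ± 0.28 with UUO, log2, SE). Gc, the vitamin D binding protein, changed by -7.63 ± 0.91 with adenine and -4.58 ± 0.39 with UUO (log2, SE), Lrp2 (megalin), the endocytic receptor, by -2.75 ± 0.56 and -2.09 ± 0.15, and Amn, the anchor of cubilin, by -4.43 ± 0.56 and -1.97 ± 0.20. Among the rises, Nfkb1 increased by 1.87 ± 0.13 and 1.86 ± 0.097, and the transcription factor Snai1 by 1.55 ± 0.19 and 2.65 ± 0.17 (log2, SE). The receptor coactivator Ncoa3 increased by 2.04 ± 0.20 and 1.20 ± 0.17, and Ncoa2 by 1.88 ± 0.36 with adenine, while its UUO value of 0.26 ± 0.19 was not called (log2, SE). Cyp3a9 was listed at 0.0001 FPKM in every sham rat and at 1.11, 1.97 and 1.61 FPKM in the UUO rats, so no fold is given.

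Of 28 genes of klotho, FGF23 and phosphate handling, 11 rose and 5 fell of 21 tested with adenine, and 10 rose and 5 fell of 21 tested with UUO. The shares that rose, 52.4% and 47.6%, stood beside 39.6% and 56.1% of all entries, and 23.8% fell in each model, beside 19.9% and 14.4%. With median-of-ratios scaling the splits were 8 and 5, and 6 and 9, for which the shares of all entries under that scaling are not given here. The sodium-phosphate cotransporters Slc34a1 and Slc34a2 moved in opposite directions, as Slc34a1 changed by -4.31 ± 0.72 with adenine and -3.86 ± 0.54 with UUO while Slc34a2 changed by 3.27 ± 0.35 and 3.59 ± 0.45 (log2, SE). Ankh, a transporter linked to extracellular pyrophosphate, rose by 3.96 ± 0.25 and 2.55 ± 0.13, and Adam17, a protease known to cut klotho from the cell surface, rose by 1.80 ± 0.15 and 1.57 ± 0.091 (log2, SE). Pdzk1, a scaffold of the phosphate transporters, changed by -2.60 ± 0.50 and -2.47 ± 0.25, and its fellow scaffold Slc9a3r1 by -1.76 ± 0.24 and -1.57 ± 0.14 (log2, SE). Galnt3, whose enzyme glycosylates FGF23, was lower by -2.30 ± 0.33 with adenine, and Egr1, an immediate early gene induced by FGF23, was higher by 2.26 ± 0.55 (log2, SE). Fgf23 itself did not pass the minimum FPKM in either table.

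The cells in which the calcium genes are expressed were followed by markers. Of 22 markers of the distal convoluted and connecting tubule, a list that also holds Calb1, Slc8a1 and Trpv5, 2 rose and 8 fell of 21 tested with adenine, and 16 fell of 19 tested with UUO. Both rises with adenine were of those members, Trpv5 and Slc8a1. With adenine 9.52% of the tested markers rose and 38.1% fell, beside 39.6% and 19.9% of all entries. With UUO 84.2% of them fell, beside 14.4% of all entries. The largest falls outside the set were those of Klk1, Emx1 (-2.60 ± 0.45) and Scnn1g (-1.20 ± 0.32) with adenine and of Aqp2 (-3.36 ± 0.13), Kcnj10 (-3.23 ± 0.35) and Slc12a3 (-3.21 ± 0.35) with UUO (log2, SE). The summed FPKM of the markers outside the set ranged from 422 to 1279 in the control, 224 to 413 in the adenine, 701 to 879 in the sham and 221 to 287 in the UUO rats. Pvalb was at the lowest listed value in 5 of 6 samples of each table. Without both rats numbered 2 the number of called markers of this list with adenine was 15 rather than 10. Those rats stood apart on Slc12a3 and Calb1, which belong to this list, and were chosen after that was seen. The share of all entries called in that fit is not given here, so the larger count is no result about these markers.

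Markers of other cells moved with the same comparisons, and their part in the changes of the calcium genes was not tested. The counts below stand beside 39.6% risen and 19.9% fallen of all entries with adenine, and 56.1% risen and 14.4% fallen with UUO. Of macrophage and leukocyte markers, 13 of 14 tested rose with adenine and 14 of 14 with UUO, and their summed FPKM ranged from 170 to 244 in the control, 6566 to 13260 in the adenine, 201 to 330 in the sham and 1630 to 2244 in the UUO rats. Of these, Cd163 and Itgam in both tables and Ms4a1 with UUO passed the minimum FPKM only through treated rats, so their rise was a condition of being tested; 11 of the other 12 rose with adenine and 11 of the other 11 with UUO. Cd163 was at the lowest listed value in 2 of 6 samples of the sham and UUO table. Smooth muscle and fibroblast markers rose for 8 of 10 with adenine and 9 of 10 with UUO, with summed FPKM of 122 to 166 in the control, 718 to 899 in the adenine, 116 to 177 in the sham and 1602 to 2860 in the UUO rats. Of proximal tubule markers, a list that also holds Cyp27b1, 5 of 9 tested fell and 1 rose with adenine and 6 of 10 fell with UUO. Cyp27b1 was not tested with adenine and not called with UUO. The summed FPKM of the proximal tubule markers outside the set ranged from 1555 to 2480 in the control, 185 to 570.5 in the adenine, 2278 to 2707 in the sham and 296 to 585 in the UUO rats. Thick limb markers, a list that also holds Casr, fell for 6 of 7 with adenine and 7 of 7 with UUO. Casr was the marker not called with adenine and was among those that fell with UUO. The summed FPKM of the thick limb markers outside the set was 1616 to 1974 in the control, 174 to 386 in the adenine, 2406 to 3136 in the sham and 122 to 278 in the UUO rats. Urothelial markers had a summed FPKM that ranged from 0.765 to 6.96 in the control, 1.14 to 3.89 in the adenine, 0.646 to 2.67 in the sham and 72.0 to 145 in the UUO rats. Of the 5 tested with UUO, 4 passed the minimum FPKM only through UUO rats, so no count of calls is given. Krt5, Krt20, Upk2 and Upk3a were at the lowest listed value in 1 to 3 of the 6 samples of a table.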

How the data were processed

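Kidney RNA of 12 rats in 4 groups of 3 was analysed. The authors deposited FPKM values in 2 tables, after removing low-quality and undetermined bases, mapping, and reconstructing transcripts. The submitters' processing notes name cutadapt 1.9, HISAT2 2.0.4, StringTie 1.3.4d, edgeR and DESeq2 without roles. The genome build and annotation are not given in the sources used here. Read counts were not used here, so depth is unknown and the precision rests on the spread between 3 rats.

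Values were taken as log2(FPKM + 0.1) and fitted per table with limma 3.58.1 in R 4.3.3 (lmFit, eBayes with trend), for entries that reached an FPKM of 0.5 in 3 or more of the 6 samples, with Benjamini-Hochberg adjustment over all entries tested. A log2 fold change on this scale understates the change of low genes. The authors' DESeq2 test needs counts, which the FPKM tables do not hold. The difference between models was the difference of log2 fold changes over the root of the summed squared SEs, adjusted over 13486 symbols. Exact permutation tests were two-sided. The fits were tested on simulated data. Figures were drawn with matplotlib 3.10.9, and other steps used Python 3.11.15, pandas 2.3.3 and scipy 1.17.1.

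Groups came from the sample labels, and no label says that numbers pair rats. The genes, lists, markers and tests were chosen with earlier results of these data known. Named list genes were, per list and model, the 3 largest rises and the 3 largest falls among genes with adjusted p under 0.05 and no overlap, and any gene in a ratio. For each gene fitted in both tables, the 3 symbols with the highest Pearson r over 12 samples were also named, except for 1 that is not reported here. Symbols listed more than once were left out of list counts. When a sample was left out, the same entries were tested. Alternatives tried were a pseudocount of 1 or 0.01, a minimum FPKM of 1 or none, 3 other scalings, eBayes without trend, a replicate block and leaving out each sample. Leaving out both rats numbered 2 of the control and adenine groups was added after seeing the data.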

Additional observations from a re-analysis of the deposited data

Results flagged for a closer look

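Over the 10 genes and all listed genes, 126 were tested for a difference between the models and 39 were called, where 27.0% of all 13486 symbols tested in both were called. The 11 of these that are named above by the rule for named genes are given here, and for each the test of the difference itself showed that the change with adenine differed from the change with UUO (limma-based adjusted p under 0.05). Given as the adenine minus the UUO log2 fold change, the difference was 2.98 for Slc8a1 and 1.32 for Trpv6. In the other lists it was 2.38 for Aqp2, 1.62 for Ncoa2, 1.41 for Ankh and 0.84 for Ncoa3, and it was negative for Gc (-3.05), Amn (-2.46), Galnt3 (-1.85), Snai1 (-1.1) and S100a10 (-0.89). Of the 39 called, 8 had fitted changes of opposite sign, and only Slc8a1 of these (1.99 with adenine and -0.99 with UUO) is among the 11. Cebpb and Rxrb, chosen after their values were seen, were called in both models with opposite signs, Cebpb at -1.42 with adenine and 1.18 with UUO and Rxrb at -0.70 and 0.50. With median-of-ratios scaling the UUO values were not called, at 0.65 for Cebpb and -0.03 for Rxrb. Every model comparison in this test sets a chemical model at 3 weeks against a surgical one at 2 weeks, and model, time and table cannot be told apart.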

How the results depend on the processing

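Trpv6 and S100g kept their direction and call under every alternative in both models, as did Calb1, Casr, Vdr and Kl with UUO. The number of genes that rose with adenine (3) was 2 with median-of-ratios scaling and 1 to 3 when each sample was left out. Slc8a1 also lost its call with quantile normalization, with no filter and without both rats numbered 2. The number that fell with adenine (2) was 1 with a pseudocount of 0.01, no filter, rescaling to the same sum, eBayes without trend or the replicate block, and 1 to 3 with a sample left out. It was 5 without both rats numbered 2, a fit chosen after their values were seen. DEGs with adenine (4) were 2 with a pseudocount of 1 and 2 to 4 with a sample left out. Genes that rose with UUO (1) were 2 with rescaling to the same sum or the replicate block, and 1 to 2 with a sample left out. Genes that fell with UUO (5) were 6 with median-of-ratios scaling. Quantile normalization added calls of Slc8a1 (limma adjusted p = 0.013) and Cyp27b1 (limma adjusted p = 0.0469) as falls with UUO. Called distal tubule markers with adenine (10) were 6 to 14 with a sample left out. Genes that differed between models (2) were 1 with a pseudocount of 0.01 and 1 to 2 with a sample left out.

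Signs turned only for uncalled values. Vdr with adenine was 0.084 with rescaling to the same sum and -0.737 to 0.158 with a sample left out. Cyp24a1 with UUO was 0.197 with rescaling and -0.504 to 0.224 with a sample left out, and Cyp27b1 with UUO was -0.764 to 0.071. Without both rats numbered 2 the difference between models was -0.138 for Vdr and -0.655 for Kl. The adenine change of the S100g to Calb1 ratio was 0.478 with a pseudocount of 1 and -0.76 to 1.337 with a sample left out, that of Cyp24a1 to Cyp27b1 was -0.178 with a pseudocount of 0.01 and -0.543 to 0.794 with a sample left out, and its UUO change was -0.468 to 0.966 with a sample left out. The cause was not tested.

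No label says that replicate numbers pair the rats. Deviations of same-numbered rats correlated at -0.0772, -0.123 and -0.0487 in the adenine table and at 0.05, 0.105 and 0.0593 in the UUO table. Those of differently numbered rats lay between -0.0437 and 0.113 in the adenine table and between -0.0782 and 0.0157 in the UUO table. Deviations from a mean of 3 rats depend on each other, so these values cannot show whether rats were paired. With the number as a replicate block, 3 genes rose and 1 fell with adenine, and 2 rose and 6 fell with UUO. The block ended the call of Kl with adenine (-2.238, limma adjusted p = 0.11) and added those of Trpv5 (1.104, limma adjusted p = 0.0414) and Slc8a1 (-0.985, limma adjusted p = 0.044) with UUO. With 3 rats a group and no read counts, changes of genes under about 0.5 FPKM are poorly resolved.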

Other observations

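The symbols whose values followed each gene most closely over the 12 samples, after centring on the mean of each table, are given as a description. The samples share tables, groups and the rats that stood apart, so a high r holds group differences as well as differences between rats. Trpv6 was followed by Mfsd12 (Pearson r = 0.996), Lyn (r = 0.996) and Clu (r = 0.996), and Clu, the secreted chaperone clusterin, went from 32.6 to 64.5 FPKM in the control rats to 1175 to 2273 FPKM in the adenine rats. Calb1 was followed by Kcnj10 (r = 0.966), the potassium channel of the distal convoluted tubule, by Kl (r = 0.962) and by Tex36 (r = 0.962). Kcnj10 was 4.07, 0.341 and 2.26 FPKM in the control rats and 0.338, 1.28 and 0.0936 FPKM in the adenine rats, with control rat 2 low and adenine rat 2 high, as for Calb1. Kl was followed by Prodh2 (r = 0.981) and Gatm (r = 0.978), and Prodh2 in control rat 2 (5.21 FPKM) was likewise below adenine rat 2 (11.0 FPKM).

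Trpv5 was followed by Spred2 (r = 0.980), Tent5c (r = 0.978) and Slc7a8 (r = 0.971), S100g by Zmynd12 (r = 0.985), Mrpl40 (r = 0.983) and Mccc2 (r = 0.978), and Casr by Stk32a (r = 0.968), Cnnm1 (r = 0.965) and Atp1b1 (r = 0.957). Vdr was followed by Tmem52b (r = 0.971), Ahcyl2 (r = 0.970) and Sall3 (r = 0.967), Slc8a1 by Mcur1 (r = 0.922), Gpx1 (r = 0.920) and Slc25a43 (r = 0.916), and Cyp24a1 by Lars2 (r = 0.952), Slc25a44 (r = 0.943) and Sod3 (r = 0.934). Within the set, the highest r was that of Calb1 with Kl (0.962) and the lowest that of Trpv6 with S100g (-0.926). Fgf23 was listed at 0.168, 0 and 0 FPKM in the control rats, 0.0882, 0 and 0 in the adenine rats, 0.0001 in all sham rats, and 0.0001, 0.248 and 0.227 in the UUO rats.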
